A study of Arabidopsis thaliana with 16 samples.

Results

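The 10 genes described here belong to the miR156 and *SPL* module of *Arabidopsis thaliana*, which holds further genes. They are the miR156 loci *MIR156A* (AT2G25095) and *MIR156C* (AT4G31877) and 8 *SQUAMOSA PROMOTER BINDING PROTEIN-LIKE* (*SPL*) genes, namely *SPL2* (AT5G43270), *SPL3* (AT2G33810), *SPL4* (AT1G53160), *SPL5* (AT3G15270), *SPL9* (AT2G42200), *SPL10* (AT1G27370), *SPL11* (AT1G27360) and *SPL15* (AT3G57920). They were taken by locus identifier from the 37899 nuclear genes of the annotation, of which 27444 are protein coding and 326 are microRNA genes. The window of a gene was its annotated extent plus 500 bp on both sides.

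The study mapped H2A.Z, the histone variant deposited by the SWR1 chromatin remodeling complex, by ChIP-seq with H3 as the control, to ask how far the variant depends on SWR1 subunits. ARP6 is a conserved subunit of SWR1, and MBD9 is a methyl-CpG-binding domain protein that interacts with it. Wild type of the ecotype Columbia-0 was compared with the T-DNA insertion mutants *mbd9-3* and *arp6-1* and with the double mutant *arp6-1 mbd9-3*, all as untreated shoots 13 days after germination under long days on medium with sucrose. Each of the 4 genotypes had 2 replicates of about 0.5 g of seedlings from separate plates, each divided between an antibody against the H2A.Z proteins HTA11 and HTA9 and one against H3. Whole shoots mix many cell types, so a site occupied in few cells and one occupied weakly in all cells cannot be told apart.

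The data are 16 lists of summits, the positions of highest enrichment within MACS2 peaks. In 8 lists H2A.Z was compared with H3 of the same genotype and replicate, and in 8 lists H2A.Z of one genotype was compared with H2A.Z of another genotype of the same replicate number. A summit in the list of wild type over *mbd9-3* marks a position at which H2A.Z was called higher in wild type than in *mbd9-3*. Each summit has a deposited score, which is the q value of its enrichment as −log10, and the authors' q limit of 0.01 sets a floor of 2 on it. The lists hold no read counts, so the depth is unknown, and a window without a summit had no peak called rather than no H2A.Z. A gene was called in a comparison when its window held a summit of each replicate no more than 200 bp apart. The 3 comparisons of wild type with a mutant share the wild-type libraries. Without read counts no model of the libraries could be fitted, and an exact permutation test of 2 against 2 libraries cannot go below a two-sided p of 0.333, so no test was made and the counts are descriptions.

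List sizes differed strongly between genotypes. Over H3, the lists of replicates 1 and 2 held 29980 and 26536 summits in wild type and 15024 and 17839 in *mbd9-3*. Those of *arp6-1* held 3827 and 7506, and those of the double mutant 1243 and 1265. Among these lists the replicates of *arp6-1* differed most in size.

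miR156 is a microRNA that is abundant in young plants and declines as shoots age. It acts on transcripts of *SPL* genes, which encode plant-specific transcription factors, and its decline lets SPL proteins accumulate and move the shoot from juvenile to adult growth and on to flowering. H2A.Z usually lies in the nucleosomes after the transcription start and, in genes that respond to development or environment, also across the gene body.

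The mature miRNAs of both loci were read from the reference genome (TAIR10.1) and are shown because the sites in the *SPL* genes are matched to them. Capitals mark the seed, bases 2 to 8.
miR156a-5p, chr2:10676534-10676553, minus strand: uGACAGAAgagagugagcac
miR156c-5p, chr4:15415491-15415510, minus strand: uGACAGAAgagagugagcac
Both loci give the same 20 bases. Of the 8 miR156 and miR157 loci with an annotated 5p product, 5 (*MIR156A*, *B*, *C*, *D* and *F*) give this sequence.

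A site for this miRNA, defined as a transcribed stretch with at most 4 mismatches to its complement, was found in 11 of the 17 *SPL* genes and in all 8 *SPL* members. The sites follow, read from the genome and written as RNA, with mismatches to the complement of miR156a-5p in capitals.
SPL2, chr5:17360758-17360777, minus strand: gugcucUcucucuucuguca
SPL9, chr2:17589066-17589085, plus strand: gugcucUcucucuucuguca
SPL10, chr1:9505541-9505560, minus strand: gugcucUcucucuucuguca
SPL11, chr1:9503618-9503637, plus strand: gugcucUcucucuucuguca
SPL15, chr3:21444834-21444853, minus strand: gugcucUcucucuucuguca
SPL3, chr2:14305878-14305897, plus strand: UugcuUacucucuucuguca
SPL4, chr1:19807090-19807109, plus strand: CugcucUcucucuucuguca
SPL5, chr3:5140598-5140617, minus strand: CCgcucUcucucuucuguca
*SPL2*, *SPL9*, *SPL10*, *SPL11* and *SPL15* share 1 site with 1 mismatch, whereas *SPL3* and *SPL4* have 2 mismatches and *SPL5* has 3. The site lies in a coding exon of 4 members (*SPL2*, *SPL9*, *SPL11* and *SPL15*) and in the 3′ UTR of 2 (*SPL3* and *SPL5*). In *SPL4* it is 3′ UTR or intron and in *SPL10* 3′ UTR or coding exon, depending on the transcript. *SPL6*, *SPL13A* and *SPL13B*, which are not among the members, carry the same site as *SPL2*, and the 6 *SPL* genes without a site had at least 6 mismatches.

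The windows of the 10 genes held 28 of the 216620 summits in the 16 lists, 17 over H3 and 11 between genotypes. These 28 summits fell in 5 genes: *SPL9* with 9, *SPL4* and *SPL15* with 8 each, *MIR156A* with 2 and *SPL3* with 1. The other 5 genes, *SPL2*, *SPL5*, *SPL10*, *SPL11* and *MIR156C*, had no summit in any list. No summit at all was also found for 5402 (19.7%) of the protein-coding windows and 207 (63.5%) of the microRNA windows. No difference from these shares was tested.

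**Figure D1:**
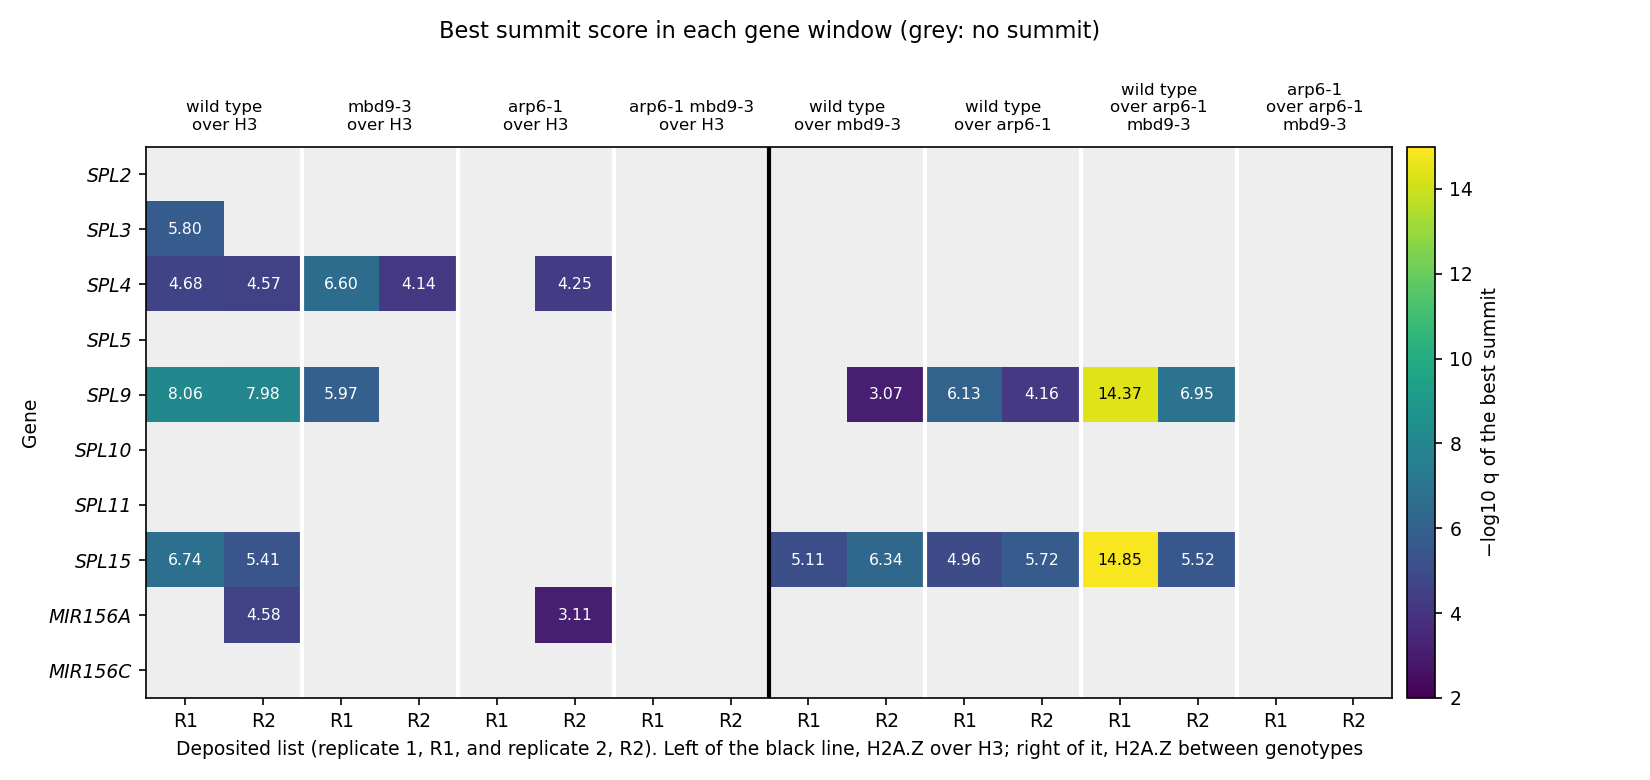
Best score, as −log10 q, of the summits in each gene window (vertical axis) in each of the 16 lists (horizontal axis, replicates R1 and R2), with grey for no summit. *SPL9* and *SPL15* have summits in wild type and in the lists between genotypes, *SPL4* has them only over H3, and 5 genes are grey throughout.

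In wild type, *SPL4*, *SPL9* and *SPL15* were called over H3, 3 of the 8 *SPL* members, and neither *MIR156* locus was. Of all protein-coding windows 55.2% were called by the same rule, and of all microRNA windows 16%. No wild-type summit in either replicate was found for *SPL2*, *SPL5*, *SPL10*, *SPL11* and *MIR156C*, as for 29.9% of protein-coding and 71.5% of microRNA windows. The *SPL* members had a median length of 2231 bp, beside 2078 bp for all protein-coding genes.

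**Figure D2:**
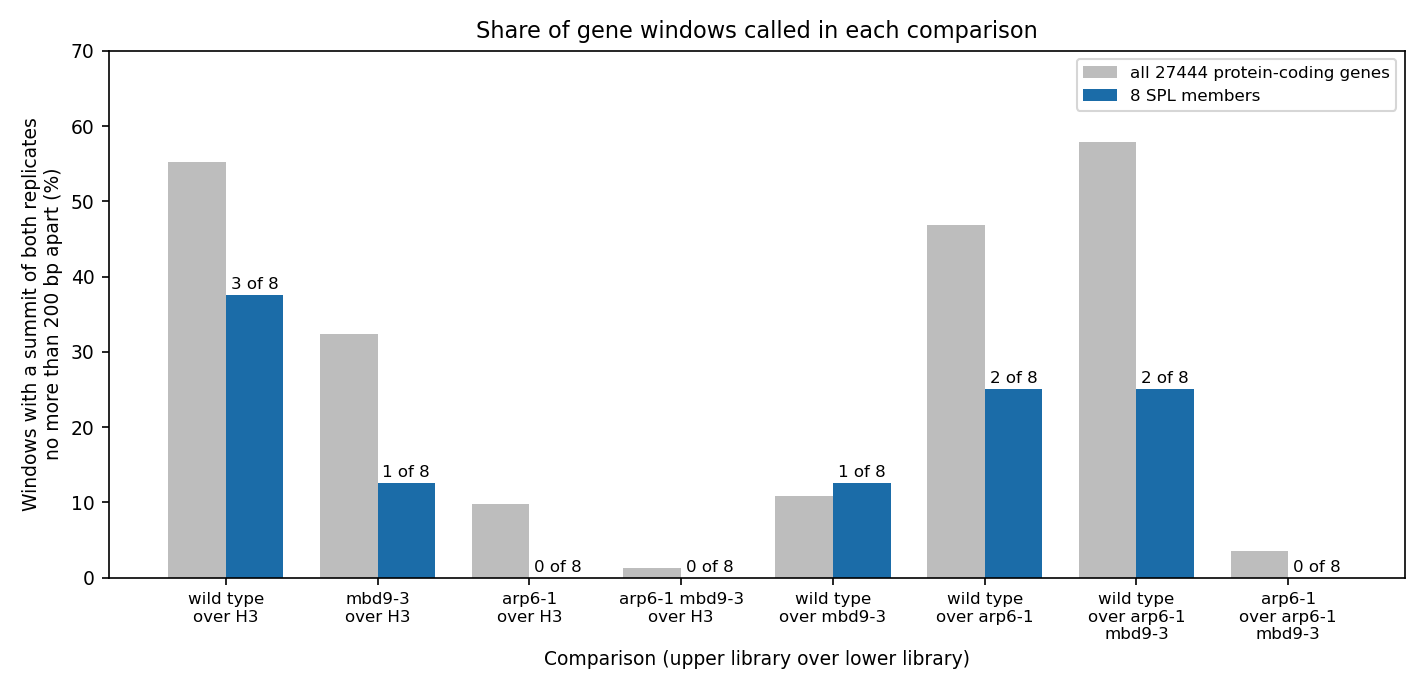
Share of gene windows called (vertical axis, %) in each of the 8 comparisons (horizontal axis), for all 27444 protein-coding genes in grey and for the 8 *SPL* members in blue, with the number of members called. In wild type over H3 the bars stand at 55.2% and at 3 of 8 members.

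*SPL9*, whose product promotes adult leaf traits and slows the initiation of new leaves, carried the highest wild-type scores of the 10 genes. In wild type its summits lay 568 bp (replicate 1, score 8.06) and 574 bp (replicate 2, score 7.98) after the annotated start, 6 bp apart, in the first part of the coding sequence. These scores stood above 67.0% and 74.8% of all summits of their lists. In *mbd9-3*, replicate 1 had summits at 480 bp (5.97) and, in an intron, at 820 bp (3.15), and replicate 2 had none. No summit over H3 was listed for *SPL9* in *arp6-1* or the double mutant.

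In the lists between genotypes, the summits at *SPL9* lay close to the wild-type summits over H3. These lists share the wild-type H2A.Z libraries with the wild-type lists over H3, so the positions are not independent. Wild type exceeded *arp6-1* at 563 bp (6.13) and 574 bp (4.16), and it exceeded *arp6-1 mbd9-3* at 568 bp (14.4) and 574 bp (6.95). In the list of wild type over *mbd9-3* only replicate 2 had a summit, at 575 bp with a score of 3.07 that stood above 19% of its list. Replicate 1 of the same comparison had none, so *SPL9* was not called there.

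*SPL15*, a close relative of *SPL9* that promotes flowering at the shoot apex, was the only member called in every comparison of wild type with a mutant. In wild type over H3 its summits lay at 199 bp (replicate 1, 6.74) and 319 bp (replicate 2, 5.41), 120 bp apart. No mutant list over H3 held a summit in its window. Wild type exceeded *mbd9-3* at 199 bp (5.11) and 248 bp (6.34), which stood above 57.2% and 79.8% of their lists. For *arp6-1* the summits lay at 199 bp (4.96) and 273 bp (5.72), and for *arp6-1 mbd9-3* at 199 bp (14.9) and 273 bp (5.52). Replicate 1 had the same position in all 4 comparisons, and replicate 2 moved between 248 and 319 bp. The 4 comparisons share the wild-type H2A.Z library of each replicate, so these positions are not independent of each other.

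The whole of *SPL15* lies inside AT3G57910, a gene of 3542 bp on the opposite strand, and ChIP carries no strand. The summits lay 3074 to 3194 bp after the start of AT3G57910, toward its end, and 199 to 319 bp after the start of *SPL15*. The summits cannot be assigned to one of these genes by position alone. Leaving out summits inside another gene therefore removes every call of *SPL15* by definition, and says nothing more about its summits.

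The sequence across the called wild-type summits is shown for the 3 called genes, because *SPL9* and *SPL15* share a stretch there. Each run has 151 bases of TAIR10 around the midpoint between the summits of both replicates, on the coding strand. It holds the summits of both replicates and is wholly in a coding exon. In *SPL9* and *SPL15* capitals mark their longest shared run, and in *SPL4* they mark the bases from one summit to the other.
SPL9, chr2:17587665-17587815, plus strand: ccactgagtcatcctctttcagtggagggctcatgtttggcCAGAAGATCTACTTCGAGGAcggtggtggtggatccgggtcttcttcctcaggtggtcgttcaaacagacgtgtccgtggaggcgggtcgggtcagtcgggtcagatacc
SPL15, chr3:21445701-21445851, minus strand: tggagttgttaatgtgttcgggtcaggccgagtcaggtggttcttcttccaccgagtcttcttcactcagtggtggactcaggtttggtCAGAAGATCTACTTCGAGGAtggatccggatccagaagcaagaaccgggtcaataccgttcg
SPL4, chr1:19806551-19806701, plus strand: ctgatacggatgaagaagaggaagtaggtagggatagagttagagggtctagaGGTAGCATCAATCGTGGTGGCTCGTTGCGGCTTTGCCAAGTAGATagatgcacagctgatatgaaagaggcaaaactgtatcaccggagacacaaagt
The shared run of 20 bases occurs 2 times in the genome, in these genes alone. Its middle lies 114 bp after the first coding base in *SPL9* and 100 bp after it in *SPL15*. From the middle of the run, the wild-type summits of *SPL9* lay 22 and 28 bp downstream, and that of *SPL15* in replicate 2 lay 36 bp downstream, whereas that in replicate 1 lay 84 bp upstream. The run is marked within stretches centred on these summits, so it had to lie close to them. Counted from the first coding base, the replicate 2 summits stood at 142 bp in *SPL9* and 136 bp in *SPL15*. Those of replicate 1 stood at 136 bp in *SPL9* and 16 bp in *SPL15*, so the near match holds in replicate 2 alone.

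The base composition of these sites differed among the members. In the 201 bp around a summit, *SPL9* had 58.2% and 57.7% G and C in replicates 1 and 2, above the 90th percentile of all wild-type summits (52.2% in both lists). *SPL15* had 46.8% and 48.3%, *SPL4* 44.8% to 45.8%, *SPL3* 43.3% and *MIR156A* 43.8%, beside medians of 43.8% and 44.3% over all summits. Whether base composition moved the *SPL9* scores was not tested.

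*SPL3*, *SPL4* and *SPL5* encode small SPL proteins that promote flowering, and they differed among themselves. *SPL4* was called in wild type, with summits at 385 bp (replicate 1, 4.68) and 341 bp (replicate 2, 4.57), 44 bp apart. These scores stood above 33.2% and 38.4% of their lists, lower in their lists than those of *SPL9*. Replicate 2 had a further summit at 753 bp (4.03). *SPL4* was also the only member called in *mbd9-3*, at 422 bp (6.60) and 396 bp (2.88), with a further summit of replicate 2 at 699 bp (4.14). In *arp6-1*, replicate 2 had summits at 244 bp (3.21) and 692 bp (4.25), while the smaller list of replicate 1 had none. In *arp6-1 mbd9-3* no summit was listed.

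No list between genotypes held a summit at *SPL4*. Among the 15142 protein-coding windows called in wild type, 270 (1.78%) had no summit in any of these 8 lists, a count made after the values of *SPL4* were seen. The summits at 692, 699 and 753 bp all came from replicate 2 and lie within *MIR156i*, a locus of 197 bp annotated on the opposite strand. The miR156 site of *SPL4* is in the same locus, 83 bp from the nearest wild-type summit.

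*SPL3* had a summit in 1 list of 16, wild type replicate 1, at 446 bp with a score of 5.80 that stood above 46.7% of that list. The position also lies in AT2G33815, a long non-coding RNA of 1046 bp on the opposite strand. In replicate 2 the nearest wild-type summit was 2124 bp from the gene, in *MBAC1*. *SPL5* had none in any list, and its nearest wild-type summits lay 1477 and 1481 bp from the gene in replicates 1 and 2. Both were in AT3G15260, which also covers the miR156 site of *SPL5*.

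Of the 28 summits, 25 lay in coding exons of *SPL* members, 1 lay in an intron, and the 2 at *MIR156A* lay in its stem-loop. They are not 28 separate sites, since lists that share libraries repeat the same or close positions. The share of all listed summits in each kind of feature was not computed, so these counts have no background beside them. None was upstream of an annotated start, in a UTR or in the flanks of a window. At *SPL3*, *SPL4*, *SPL9* and *SPL15* the wild-type summits stood between the start and the miR156 site, with distances from the site to the nearest summit of 440, 83, 1332 and 873 bp. These sites lie 877, 827, 1897 and 1182 bp after the start, and whether other genes show the same order was not examined.

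**Figure D3:**
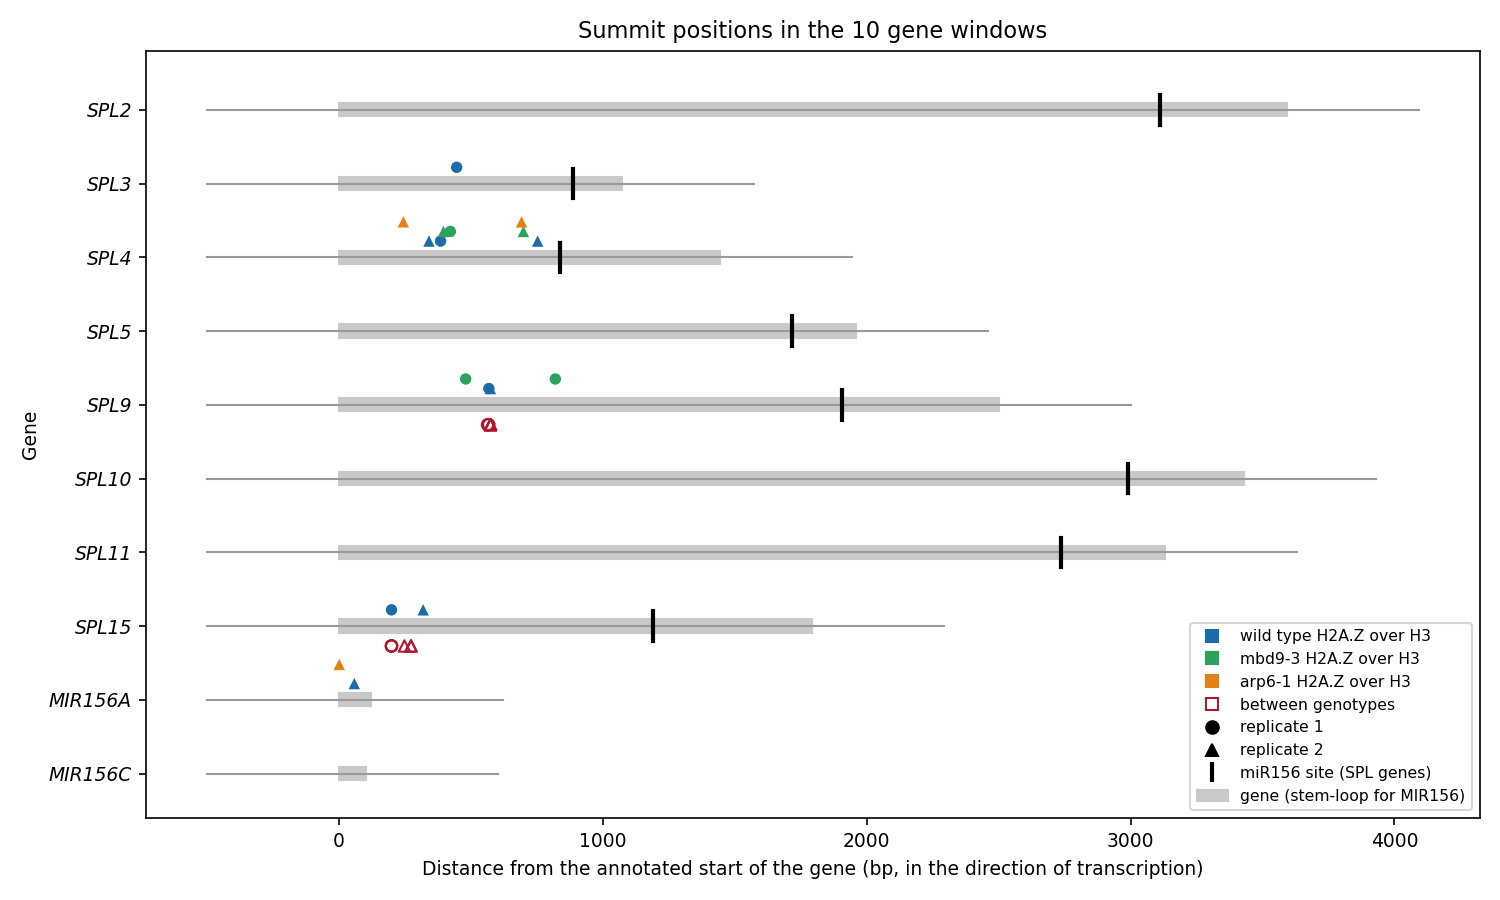
Summits by distance from the annotated start (horizontal axis, bp in the direction of transcription) for the 10 genes (vertical axis), with grey bars for the genes, thin lines for the flanks and black ticks for miR156 sites. Filled symbols above a gene are summits over H3, open symbols below it are summits between genotypes, and all summits of *SPL9* between genotypes lie from 563 to 575 bp.

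*SPL2*, *SPL10* and *SPL11* act together on leaf shape and are the longest members, at 3594, 3431 and 3132 bp. None had a summit in any list although their windows were the widest. *SPL10* and *SPL11* are neighbours that run toward each other with 1088 bp between their ends. A single stretch without wild-type summits covered both genes, of 14153 bp in replicate 1 and 14043 bp in replicate 2. It ended at *RIC2*, 1428 and 1334 bp upstream of *SPL10*, with weak summits (2.56 and 2.06), and at *LCR*, 5075 and 5059 bp upstream of *SPL11*, with stronger ones (9.65 and 7.59). Of all protein-coding genes, 6.07% and 8.54% were as far from a wild-type summit as *SPL11* or farther. The corresponding shares for *SPL10* were 20.5% and 27.5%.

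*SPL2* lay in a summit-free stretch of 10307 bp in replicate 1 and 16681 bp in replicate 2. Its nearest summits were 2387 and 3937 bp from the gene, and 13.9% and 11.5% of protein-coding genes were as far or farther. The share of 50-base stretches found at no other place in the genome was 98.5% in the *SPL2* window and 100% in the windows of the other 9 members, called or not.

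**Figure D4:**
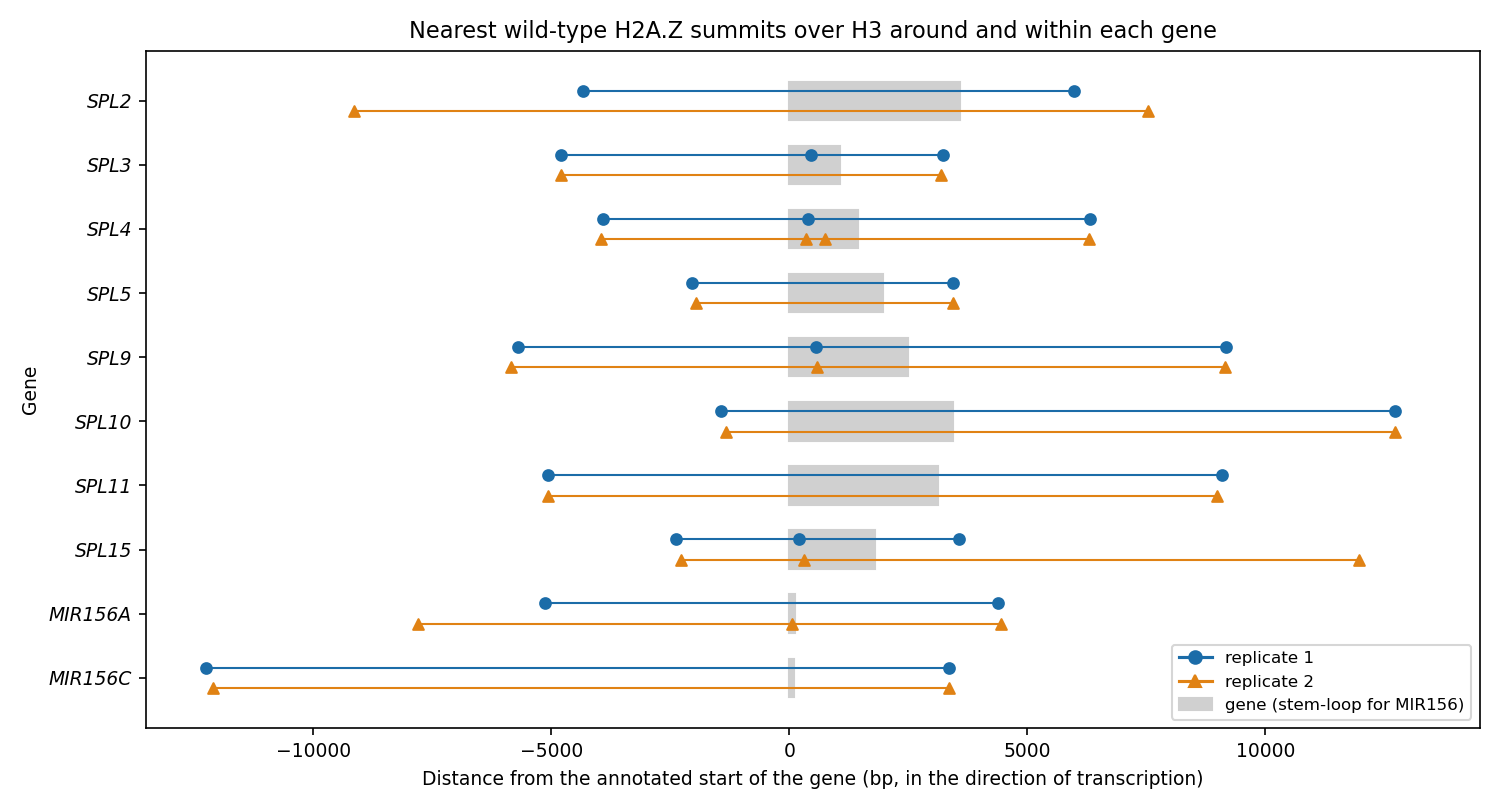
Nearest wild-type summits over H3 (circles for replicate 1, triangles for replicate 2) on both sides of and within each gene (vertical axis), by distance from its annotated start (horizontal axis, bp in the direction of transcription). *SPL10* and *SPL11* show the same summit-free stretch of 14153 and 14043 bp from opposite sides, and *MIR156C* lies in one of 15597 and 15462 bp.

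The *MIR156* loci are annotated by their stem-loops alone, of 123 bp for *MIR156A* and 104 bp for *MIR156C*, so the start of the primary transcript is not known from the annotation and may lie outside the window. *MIR156A* had a summit in wild type replicate 2, at 58 bp with a score of 4.58, and in *arp6-1* replicate 2, at 1 bp with a score of 3.11. Replicate 1 had none in either genotype, and *MIR156A* was called in no comparison. The stem-loop that holds both summits is shown as DNA, with the mature miR156a-5p, bases 21 to 40, in capitals.
MIR156A, chr2:10676451-10676573, minus strand: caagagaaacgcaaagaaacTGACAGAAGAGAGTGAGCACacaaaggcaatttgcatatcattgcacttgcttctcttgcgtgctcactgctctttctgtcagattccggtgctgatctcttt
*MIR156C* had no summit, and its nearest wild-type summits lay 3244 and 3251 bp away, at the neighbours *GPX7* and AT4G31875. Of all microRNA genes, 30.1% and 32.8% were as far or farther, so this distance was not unusual among them.

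Across the mutants over H3, 1 of the 8 *SPL* members was called in *mbd9-3* (*SPL4*), beside 32.3% of all protein-coding windows. None was called in *arp6-1*, beside 9.77%, nor in the double mutant, beside 1.32%. Among the protein-coding windows called in wild type, *mbd9-3* shared 55.8%, *arp6-1* shared 17.3% and the double mutant shared 2.35%. Of the 3 members called in wild type, *SPL4* alone was called in a mutant. Neither *MIR156* locus was called in a mutant, beside 5.83% of microRNA windows in *mbd9-3*, 0.613% in *arp6-1* and 0% in the double mutant.

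Between genotypes, *SPL15* was called for wild type over *mbd9-3*, beside 10.8% of all protein-coding windows. *SPL9* and *SPL15* were called for wild type over *arp6-1* and over *arp6-1 mbd9-3*, beside 46.9% and 57.9%. Among protein-coding windows called in wild type, the share was 15.7% for *mbd9-3*, 70.3% for *arp6-1* and 85.3% for the double mutant. Of the 3 members called in wild type, 1, 2 and 2 were called in these comparisons. No member was called for *arp6-1* over *arp6-1 mbd9-3*, beside 3.48%. For the *MIR156* loci the counts were 0 in all 4 comparisons, beside 1.53%, 8.59%, 9.20% and 0% of microRNA windows in the same order. The shares of 8 or fewer genes move in large steps, and none was tested against the background.

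Some counts rested on 1 library. With replicate 1 alone, *SPL4* and *SPL9* had summits in *mbd9-3*. With replicate 2 alone, *SPL4* and *MIR156A* had summits in *arp6-1*, and *SPL9* joined *SPL15* for wild type over *mbd9-3*.

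Of the other 9 *SPL* genes, 2 were called in wild type, beside 55.2% of all protein-coding windows. Over H3, 2 were called in *mbd9-3* (background 32.3%), 2 in *arp6-1* (9.77%) and 0 in the double mutant (1.32%). Wild type exceeded *mbd9-3* at 1 (10.8%), *arp6-1* at 3 (46.9%) and *arp6-1 mbd9-3* at 3 (57.9%). No difference from the background was tested. The 2 called in wild type, *SPL8* and *SPL16*, were also called in *mbd9-3* and for wild type over *arp6-1* and over *arp6-1 mbd9-3*. *SPL8*, a gene of pollen sac development without a miR156 site, was called for wild type over *mbd9-3* and also in *arp6-1*, and it had a summit of each replicate in *arp6-1 mbd9-3* that lay more than 200 bp apart. Not called in wild type were *SPL1*, *SPL6*, *SPL7*, *SPL12*, *SPL13A*, *SPL13B* and *SPL14*. *SPL7*, which regulates copper homeostasis, was nevertheless called for wild type over *arp6-1* and over *arp6-1 mbd9-3* with no wild-type summit over H3. *SPL12* was called over H3 in *arp6-1* only, but replicate 2 also had a summit there in wild type and in *mbd9-3*. For wild type over *arp6-1* and over *arp6-1 mbd9-3*, replicate 2 alone had a summit at *SPL12*. For *arp6-1* over *arp6-1 mbd9-3*, replicate 1 alone had summits. For *SPL13A* and *SPL13B* the lists are silent, since 0% of their 50-base stretches occur at a single place in the genome and the authors kept uniquely mapping reads.

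Of the other loci of miR156 and its relative miR157, 10 lie outside the *SPL* genes. Among them *MIR156B* and *MIR156H* were called in wild type, beside 16% of all microRNA windows. Both were also called for wild type over *arp6-1* (background 8.59%) and over *arp6-1 mbd9-3* (9.20%). *MIR156H* was also called for wild type over *mbd9-3* (1.53%). *MIR156D*, *MIR156E*, *MIR156F*, *MIR156G* and the 4 *MIR157* loci were not called in wild type, although *MIR156E* and *MIR156F* had a summit in replicate 2. None of the 10 was called over H3 in a mutant, beside 5.83% of microRNA windows in *mbd9-3*, 0.613% in *arp6-1* and 0% in the double mutant. No difference from these shares was tested. The annotation also holds *MIR156i* and *MIR156j*, on the opposite strand within *SPL4* and *SPL9*. By the same rule the window of *MIR156i* was called in wild type and in *mbd9-3*, through the summits that also called *SPL4*, and that of *MIR156j* held no summit in any list.

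Of the 11 genes of the miR172 branch, the next step of the pathway, 6 (54.5%) were called in wild type, beside 55.2% of all protein-coding and 16% of all microRNA windows. SPL proteins activate *MIR172* genes, and miR172 acts on transcripts of 6 AP2-type transcription factors that repress flowering or specify floral organs. The 6 called genes were all of the AP2-type genes (*AP2*, *TOE1*, *TOE2*, *TOE3*, *SMZ* and *SNZ*), and no difference from the background or from the *SPL* members was tested. Over H3, 3 of the 6 were called in *mbd9-3* (background 32.3%), and none in *arp6-1* (9.77%) or the double mutant (1.32%). Wild type exceeded *mbd9-3* at 2 of them, *TOE1* and *SMZ* (10.8%), *arp6-1* at 4 (46.9%) and *arp6-1 mbd9-3* at 5 (57.9%). *SMZ* was the only gene of the 4 lists that was called for *arp6-1* over *arp6-1 mbd9-3* (3.48%). The 5 *MIR172* loci (*MIR172A* to *MIR172E*) were called in no comparison, beside 0% to 16% of microRNA windows, depending on the comparison. *MIR172A* and *MIR172B* had a summit in 1 wild-type replicate, and *MIR172B* and *MIR172C* in 1 replicate of *mbd9-3*. For wild type over *arp6-1* and over *arp6-1 mbd9-3*, *MIR172B* had a summit in 1 replicate.

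**Figure D5:**
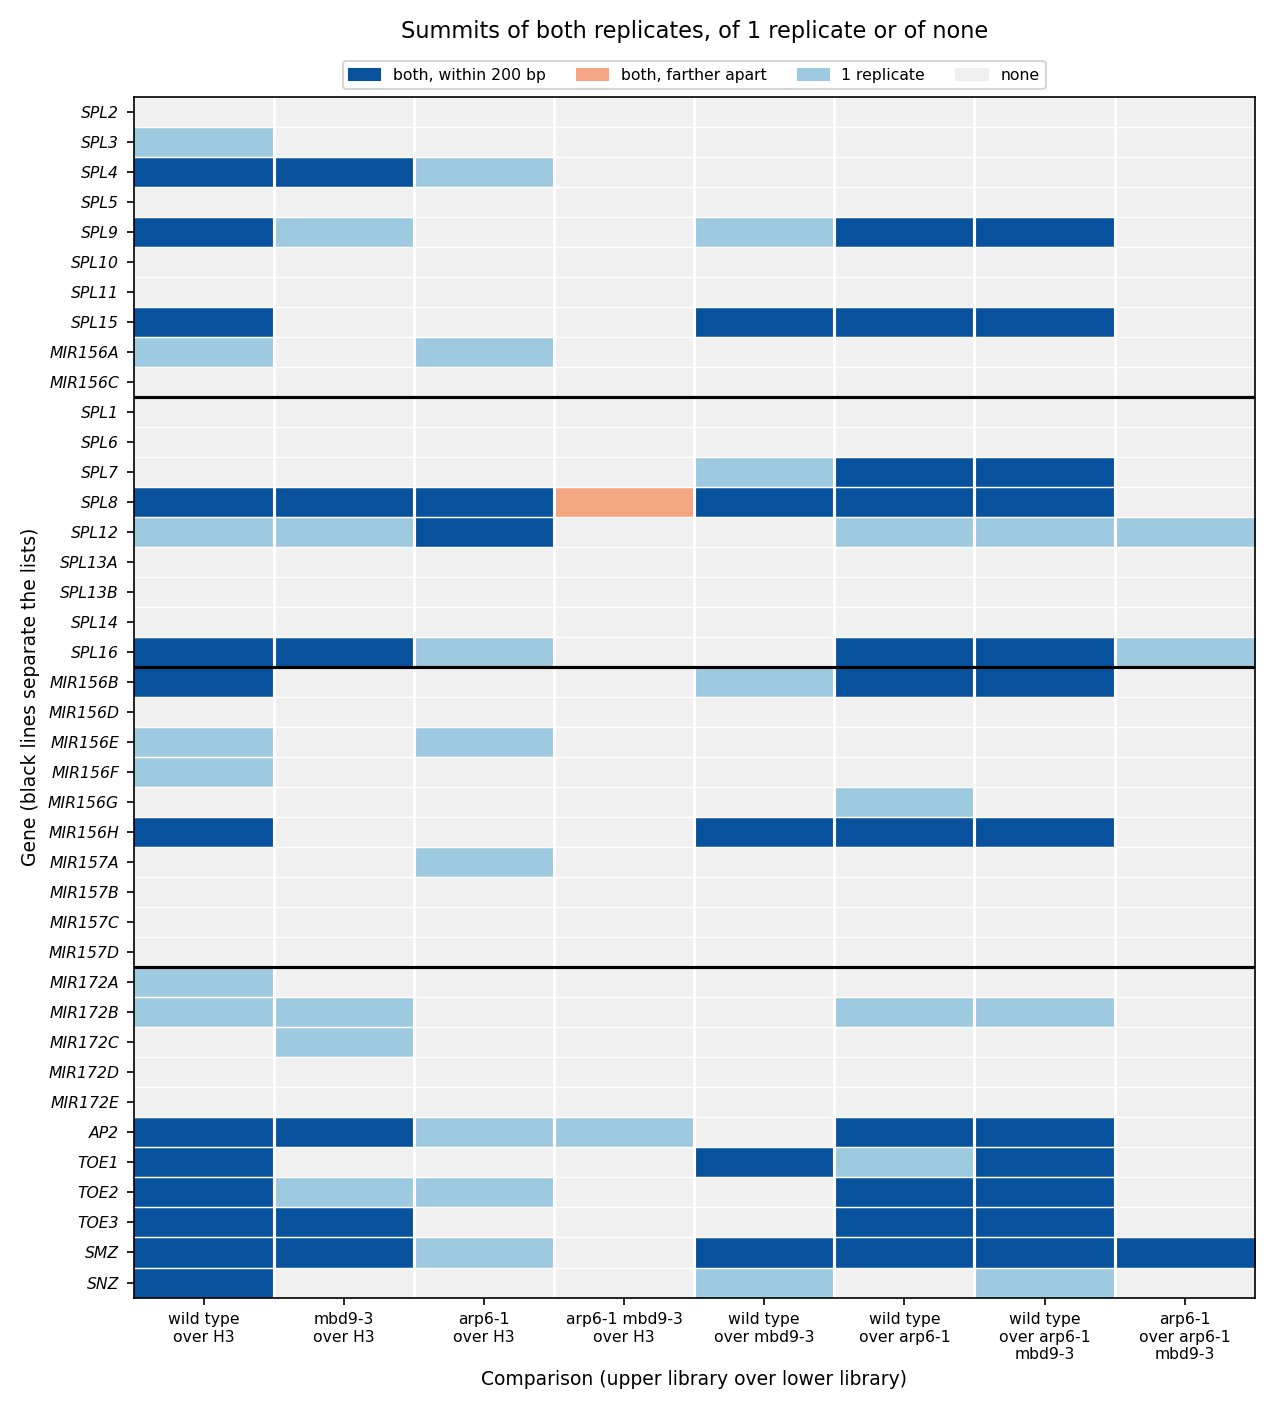
Summits in the windows of the 10 members (top block), the other *SPL* genes, the other miR156 and miR157 loci and the miR172 branch (vertical axis) in the 8 comparisons (horizontal axis). Dark blue marks a summit of each replicate within 200 bp, orange such summits farther apart, light blue a summit of 1 replicate and grey none, and all 6 AP2-type genes are dark blue in wild type over H3.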

How the data were processed

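Chromatin of 13 day old shoots of 4 genotypes was immunoprecipitated with antibodies against H2A.Z and H3, in 2 replicates each. Per the labels and the methods of the study, Bowtie mapped the reads to TAIR10 and only reads with a unique position were kept, duplicates were removed with SAMtools, and summits were called per replicate with MACS2 (version 2.1.1, q value 0.01, extension size 200). The score the authors deposited is the −log10 of the q value. Read length and the scaling of H2A.Z libraries between genotypes are not given in the sources used here, and depth is unknown.

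Genes and sequences came from RefSeq on TAIR10.1, and no summit lay outside its chromosomes. Windows were gene extents plus 500 bp. A gene was called when summits of both replicates lay no more than 200 bp apart. Scores were described within their own list, and scores of different lists were not compared. Python 3.11.15, numpy 2.4.6 and matplotlib 3.10.9 were used, and the calling step was tested on simulated data. The alternatives were summits joined within 100 or 500 bp, a score minimum of 5 or 10, no flank, summits inside other genes left out, and each replicate alone. The 10 members and the other gene lists were chosen with earlier results of these data known. All members were named, genes overlapping a window where a summit lay in them, and from the other lists the genes called for wild type over *mbd9-3* or *arp6-1* over *arp6-1 mbd9-3* and those not called in wild type. Neighbours at the nearest summits, *SPL16*, *MIR156B*, *MIR156j* and the AP2-type genes were named after their values were seen. H3 signal and RNA were not analysed here.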

Additional observations from a re-analysis of the deposited data

How the results depend on the processing

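Of the 64 counts of members called under the 8 alternatives, 51 stayed within 1.5 times the reported count and 13 moved. Part of the 51 could not move, so their number is no measure of stability. No member had a summit in the double mutant over H3 or for *arp6-1* over *arp6-1 mbd9-3*. No summit lay in a flank either, so leaving out the flanks could change no count. At a score of at least 10, no member (0) was called in wild type or *mbd9-3* over H3, or for wild type over any mutant. At a score of at least 5 the count was 0 in *mbd9-3* and 0 for wild type over *arp6-1*, and in wild type over H3 it was 2, without *SPL4*. With summits inside another gene left out, the count was 0 for wild type over *mbd9-3* and 1 (*SPL9*) for wild type over *arp6-1* and over *arp6-1 mbd9-3*. This setting removes *SPL15* by definition, since the gene lies inside AT3G57910. With each replicate left out in turn, counts ranged from 1 to 2 in *mbd9-3*, from 0 to 2 in *arp6-1* and from 1 to 2 for wild type over *mbd9-3*, and in wild type over H3 they were 4 with either replicate. A joining distance of 100 bp removed *SPL15* from wild type over H3. No paired analysis was possible without read counts, although the authors compared libraries within a replicate number. Summits mark only the strongest point of a peak, so broad or weak H2A.Z over a gene body is not seen, and the effect of another scaling of the libraries on the lists between genotypes was not tested.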
